A study of Mus musculus with 6 samples.

Results

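The forkhead transcription factors were examined in RNA-sequencing libraries of stimulated primary mouse osteocytes. The members were the protein-coding genes of the count table whose symbol is Fox followed by one letter, a number and at most one further letter. This rule took 45 of 56748 genes, of which 21970 are protein-coding, and used no measured value. Of the 45 members, 34 had a count in at least 1 library and 24 had enough counts to be tested, beside 17146 tested genes in all. The table's own transcription factor column gives the class Fork_head to 44 of the 45 and not to *Foxr1*.

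The 3 WT libraries came from C57BL/6 mice and the 3 others carry the label cKO, a conditional knockout of *Gsdmd* in osteocytes (Gsdmd fl/fl; DMP1-Cre), in which a Cre driven by the dentin matrix protein 1 promoter is meant to delete the pore-forming protein gasdermin D. Cells were released from long bones by repeated digestion with collagenase and EDTA and cultured for 7 days. The methods name mice 7 weeks old for the isolation and say that mice of the compared genotypes were matched in age and sex. Every library received lipopolysaccharide (LPS, a bacterial wall component, 10 ng/mL for 3 h) and then aluminum hydroxide (20 µg/mL for 3 h), a sequence that induces the lytic cell death called pyroptosis. No unstimulated library was analysed here, so each comparison is between genotypes after stimulation. The sources do not say which mice or cultures the libraries came from, so the p-values measure the spread between these libraries, which may be technical.

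Library totals lay between 39566835 and 49734046 counts, and 1 count corresponds to 0.0202 to 0.0258 CPM (counts scaled to a library of 1000000). *Gsdmd* itself had 609, 699 and 549 counts in WT and 885, 937 and 1045 counts in the cKO-labelled libraries. *Gsdmd* was higher in the latter (log2 fold change 0.69, SE 0.083, adjusted p = 2.27e-06, from the quasi-likelihood fit of edgeR, with Benjamini-Hochberg adjustment over all tested genes, as for every adjusted p here), although the label says it was deleted. The methods place loxP sites around critical exons of *Gsdmd*, and a count over the whole gene does not show which exons were read. The count therefore does not tell whether the deletion took place, and every direction given here rests on the genotype label alone. *Xist* had 44817 to 51216 counts in the cKO-labelled libraries and 0 to 4 in WT, and only the WT libraries held counts of the Y-linked genes *Ddx3y*, *Eif2s3y*, *Uty* and *Kdm5d*. The libraries thus differ in sex markers although the methods describe matching for sex, and sex and genotype label cannot be told apart in these data. All 16 macrophage markers were higher in the cKO-labelled libraries, with a summed level of 1235 to 1395 CPM in WT and 6685 to 7016 CPM in the others. Of the 9 osteocyte markers only 3 (*Pdpn*, *Irx5* and *Ackr3*) could be tested. *Sost* and *Dkk1* were at 0 in every library, and *Mepe* reached at most 2 counts, *Dmp1* 6, *Phex* 22 and *Fgf23* 34. At the RNA level these defining markers thus do not bear out the labelled cell type. The 9 markers together summed to 553.3 to 590.7 CPM in WT and 514.7 to 540.6 CPM in the others. The methods say that isolated cells were identified as osteocytes by immunofluorescence with an antibody to DMP1.

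Forkhead proteins bind DNA through a winged-helix domain whose recognition helix lies in the major groove, most often at sites built around the core TGTTTAC. The family is sorted into lettered subfamilies. FoxO proteins are held in the cytoplasm by insulin and growth factor signalling through AKT and, when nuclear, drive stress resistance, cell cycle arrest and apoptosis genes, and in bone they guard osteoblasts against oxidative stress. FoxC, FoxF, FoxD and FoxL proteins pattern the mesenchyme of the embryo, FoxM1 drives the genes of mitosis, FoxP proteins repress transcription in several lineages, and Foxj1 directs the genes of motile cilia.

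The coding bases of the recognition helix, the part of the protein that contacts DNA, are printed for 10 of the 13 members that passed the test below. Each run is 39 bases (13 codons) of the canonical coding sequence, read 5′ to 3′ on the coding strand from GENCODE M39 on GRCm39, and was found by the residue pattern asparagine, any 2 residues, arginine, histidine, asparagine. The pattern was found in 40 of the 45 members and not in *Foxa1*, *Foxa2*, *Foxa3*, *Foxh1* or *Foxr1*. Capitals mark the 15 bases that all 10 printed runs share. Each run lies within 1 coding exon, at the position given with its name.
Foxc1 (chr13:31991560-31991598, plus strand): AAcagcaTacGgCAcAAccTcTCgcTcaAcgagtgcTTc
Foxc2 (chr8:121843702-121843740, plus strand): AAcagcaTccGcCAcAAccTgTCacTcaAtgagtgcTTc
Foxd1 (chr13:98491653-98491691, plus strand): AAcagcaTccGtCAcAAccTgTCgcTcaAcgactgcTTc
Foxf2 (chr13:31810498-31810536, plus strand): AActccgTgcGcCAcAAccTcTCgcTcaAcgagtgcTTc
Foxs1 (chr2:152774824-152774862, minus strand): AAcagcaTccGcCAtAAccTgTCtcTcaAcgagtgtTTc
Foxj2 (chr6:122808395-122808433, plus strand): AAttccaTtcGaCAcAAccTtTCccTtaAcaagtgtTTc
Foxn2 (chr17:88770626-88770664, plus strand): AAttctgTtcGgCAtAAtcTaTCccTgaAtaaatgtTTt
Foxn3 (chr12:99354647-99354685, minus strand): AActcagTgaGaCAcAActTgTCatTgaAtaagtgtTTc
Foxo3 (chr10:42073859-42073897, minus strand): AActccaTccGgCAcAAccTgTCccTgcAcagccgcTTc
Foxo4 (chrX:100301783-100301821, plus strand): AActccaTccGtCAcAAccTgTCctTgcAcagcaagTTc
Any pair of these runs differed at 4 to 17 of the 39 bases. *Foxd1* differed from *Foxc1* and from *Foxc2* at 4, as did *Foxs1* from *Foxc2*, and *Foxn2* differed from *Foxo4* at 17. These counts include differences that leave the encoded residue the same, so they do not rank how close the proteins are.

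Per kilobase of gene length, the forkhead genes with the highest level in these cultures were the mesenchymal factor *Foxc1* and the stress-response factor *Foxo3*. Levels between genes were compared as CPM per kilobase of the deposited gene length, and the order depends on that length. Before this scaling, *Foxp1* lay near both in WT (159.8 CPM, against 165.4 for *Foxc1* and 166.5 for *Foxo3*). On that scale the WT level was 28.3 ± 1.548 for *Foxc1* (SD, n = 3), 21.99 ± 0.128 for *Foxo3* and 15.95 ± 0.809 for *Foxk2*, a regulator of metabolism and autophagy genes, and the WT libraries of each of these 3 lay apart from those of the next gene in the order. *Foxc2*, *Foxp4* and *Foxp1* followed at 12.3, 11.8 and 11.6, and neighbours among them overlapped over the WT libraries. *Foxo1* and *Foxk1* both stood at 9.51. The lowest of the tested members were *Foxl1* at 0.302, *Foxq1* at 0.0974 and *Foxp3* at 0.0455. *Foxc1* made up 15.5% ± 0.828 of the summed per-kilobase level of all members in WT and 18.7% ± 0.575 in the cKO-labelled libraries, and *Foxo3* made up 12.04% ± 0.120 and 8.83% ± 0.116.

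**Figure D1:**
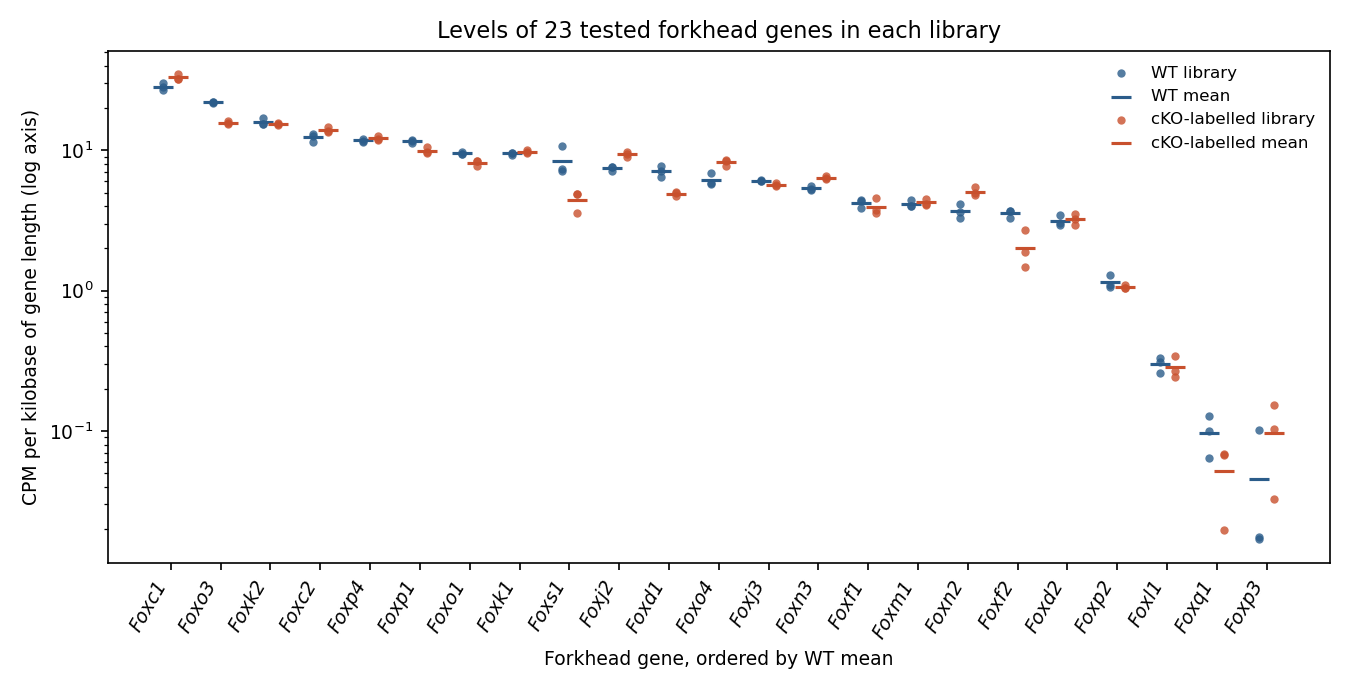
CPM per kilobase of gene length (log axis) for 23 of the 24 tested forkhead genes, ordered by WT mean, with 1 point per library and a line at the mean of each genotype label (n = 3). *Foxc1* and *Foxo3* lead in WT at 28.3 and 21.99, and *Foxl1*, *Foxq1* and *Foxp3* lie at the bottom of the range.

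After stimulation, 6 forkhead genes were higher and 7 lower in the cKO-labelled libraries, and 11 did not pass the test. The higher genes were *Foxc1*, *Foxc2*, *Foxj2*, *Foxo4*, *Foxn2* and *Foxn3*, and the lower genes described here were *Foxo3*, *Foxo1*, *Foxp1*, *Foxs1*, *Foxd1* and *Foxf2*. The 13 genes are 54.2% of the tested members, where 39.3% of all tested genes passed (20.1% higher and 19.2% lower). When a log2 fold change of at least 1 in size was also required, 0 members remained higher with edgeR, and none of the lower genes named here remained, against 11.2% of all tested genes (6.56% higher, 4.64% lower). For 14 of the 24 members the libraries of the genotype labels did not overlap, as for 49.2% of all tested genes. The median log2 fold change was −0.07 over the tested members and 0.01 over all tested genes, and the median size of the change was 0.23 and 0.25. Most differences between the labels were thus small, and the summed CPM of the 45 members was 1159 ± 19.0 in WT and 1122 ± 16.5 in the cKO-labelled libraries (SD, n = 3). In bulk libraries, fewer cells of a type and less RNA per cell cannot be told apart.

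**Figure D2:**
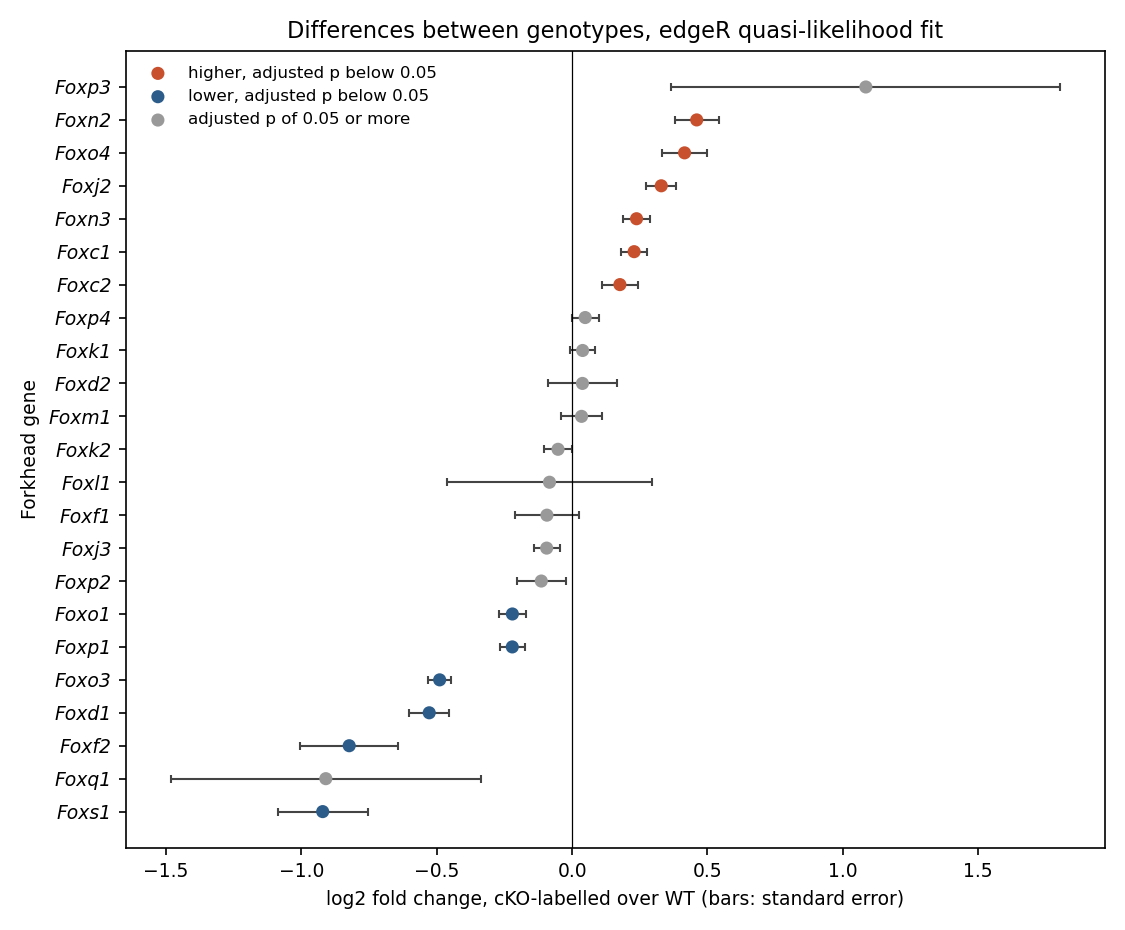
Log2 fold change of 23 of the 24 tested forkhead genes, cKO-labelled libraries over WT, with its standard error from the edgeR fit. The 6 higher genes lie between 0.18 and 0.46, the 6 lower genes shown between −0.22 and −0.92, and the wide bars of *Foxp3*, *Foxq1* and *Foxl1* belong to genes with few counts.

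Among the FoxO genes, *Foxo3* and *Foxo1* fell and *Foxo4* rose. *Foxo3* (ENSMUSG00000048756, chr10:42057837-42152751, minus strand), a regulator of antioxidant, autophagy and apoptosis genes, had 7526, 8207 and 6476 counts in WT and 4975, 4839 and 5267 in the cKO-labelled libraries. This was 166.5 ± 0.965 CPM in WT and 118.6 ± 2.89 CPM in the others (SD, n = 3). The WT libraries lay between 165.4 and 167.2 CPM and the others between 115.9 and 121.7 CPM, a fall by 0.49 on the log2 scale (SE 0.042, adjusted p = 3.65e-08). No other member had a smaller p.

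*Foxo1* (chr3:52175757-52260642), the main FoxO protein of the insulin response, was at 81.6, 84.5 and 81.1 CPM in WT and at 67.2, 72.7 and 72.4 CPM in the cKO-labelled libraries. All 3 lay below all WT libraries, and *Foxo1* fell by 0.22 on the log2 scale (SE 0.050, adjusted p = 0.00168). The non-coding gene *Gm20402* overlaps *Foxo1* on the opposite strand over 1001 bases and had 20 to 60 counts. The strand setting of the counting is not given in the sources used here, so reads over such overlaps could belong to either gene.

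*Foxo4* (chrX:100298134-100304479), an X-linked FoxO gene with roles in smooth muscle and in senescent cells, went the other way. It was at 20.0, 24.04 and 20.5 CPM in WT and at 29.2, 27.0 and 30.0 CPM in the cKO-labelled libraries, again without overlap (log2 fold change 0.42, SE 0.082, adjusted p = 0.000542). Because the labels also differ in sex, the tested X-linked genes were counted. Without *Xist*, 124 of 543, *Foxo4* among them, were higher and 117 lower, with a median log2 fold change of −0.003. The part of sex in the *Foxo4* difference was not tested. *Foxo6*, a FoxO gene best known from the brain, had at most 10 counts and was not tested.

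The make-up of the FoxO pool differed with these changes. Summed over the 4 FoxO genes, the level was 270.6 ± 3.11 CPM in WT and 218.1 ± 3.32 CPM in the cKO-labelled libraries, and the libraries did not overlap. The ratio of *Foxo3* to *Foxo4*, per length and within a library, was 3.59 ± 0.368 in WT and 1.91 ± 0.152 in the others. The ratio of *Foxo1* to *Foxo4* was 1.549 ± 0.119 and 0.993 ± 0.0810, and that of *Foxo1* to *Foxo3* was 0.433 ± 0.0121 and 0.521 ± 0.0243. Each of the 3 ratios separated the genotype labels, which for the ratios to *Foxo4* follows from the levels of the single genes given above. An exact two-sided permutation test of 3 libraries against 3 cannot go below p = 0.1, the value each reached, and adjusted over 12 ratios within subfamilies it was 0.15, as for each other ratio given here whose labels did not overlap.

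**Figure D3:**
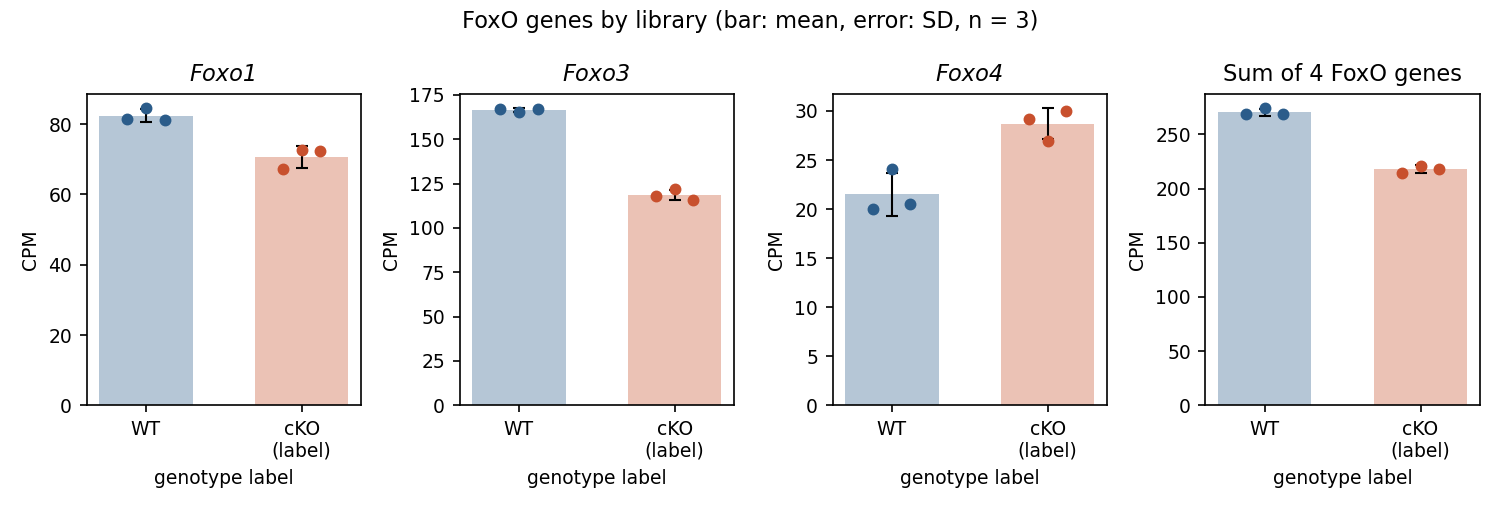
CPM of *Foxo1*, *Foxo3*, *Foxo4* and the sum of the 4 FoxO genes in each library (points), with the mean (bar) and SD (error bar, n = 3) for WT and the cKO-labelled libraries; each vertical axis starts at 0 and has its own range. *Foxo1*, *Foxo3* and the sum sit lower in the cKO-labelled libraries and *Foxo4* sits higher, with no overlap in any panel.

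The 2 FoxC genes, mesenchymal factors needed for the skeleton of the skull and the axial skeleton, were both higher in the cKO-labelled libraries. *Foxc1* (ENSMUSG00000050295, chr13:31990616-31996459, plus strand) had 7883, 8134 and 6103 counts in WT and 7926, 8132 and 8586 in the others. This was 165.4 ± 9.05 CPM in WT and 194.0 ± 9.14 CPM in the cKO-labelled libraries, with WT between 157.2 and 175.1 CPM and the others between 188.4 and 204.5 CPM. *Foxc1* rose by 0.23 on the log2 scale (SE 0.049, adjusted p = 0.00106).

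*Foxc2* (ENSMUSG00000046714, chr8:121842910-121845634, plus strand), also known for lymphatic vessels, had 1598, 1550 and 1328 counts in WT and 1543, 1579 and 1712 in the others, or 33.6 ± 2.19 and 38.0 ± 1.547 CPM. Its log2 fold change of 0.18 (SE 0.066) passed the test at an adjusted p of 0.0422. The libraries did not overlap, but the highest WT library (35.5 CPM) and the lowest of the others (36.7 CPM) were close. Its call was the least stable of the 13. Without WT replicate 2 the log2 fold change was 0.12 (adjusted p = 0.218) and without the second cKO-labelled library it was 0.14 (adjusted p = 0.179). The fold was of the same order but missed the threshold without the first (0.20, adjusted p = 0.0536) or the third cKO-labelled library (0.18, adjusted p = 0.0899), with RLE normalization (0.17, adjusted p = 0.0596), with DESeq2 (0.17, adjusted p = 0.0691) and with the replicate number as a block (0.18, adjusted p = 0.0662). The ratio of *Foxc1* to *Foxc2* per length overlapped between the labels (2.30 ± 0.152 and 2.38 ± 0.0347, exact permutation p = 0.6).

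The FoxF and FoxL genes share chromosome neighbourhoods with FoxC. On chromosome 13, *Foxf2* (chr13:31809799-31815386) lies 175229 bases before *Foxc1* and 64839 bases after *Foxq1*. On chromosome 8, *Foxf1*, *Foxc2* and *Foxl1* follow each other with gaps of 28026 and 9044 bases. *Foxf2*, a gene of visceral and palatal mesenchyme and of brain pericytes, was at 7.82, 8.79 and 8.71 CPM in WT and at 6.42, 4.45 and 3.46 CPM in the cKO-labelled libraries. The groups did not overlap, and *Foxf2* fell by 0.82 on the log2 scale (SE 0.18, adjusted p = 0.00139) while *Foxc1*, its neighbour, was higher.

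*Foxf1*, the partner of *Foxf2* in lung and gut mesenchyme, was at 10.2 ± 0.691 CPM in WT and 9.59 ± 1.23 CPM in the others (log2 fold change −0.09, adjusted p = 0.588). The ratio of *Foxf1* to *Foxf2* per length was 1.19 ± 0.142 in WT and 2.04 ± 0.392 in the cKO-labelled libraries, without overlap. *Fendrr*, a non-coding gene that starts 1276 bases from *Foxf1* on the opposite strand, had 27 to 50 counts in WT and 14 to 38 in the others (log2 fold change −0.69, adjusted p = 0.23). *Foxl1*, a gene of intestinal and other stromal cells, had 26 to 39 counts in every library (−0.08, adjusted p = 0.890). *Foxq1* had 12 to 28 counts in WT and 4 to 15 in the others, and did not pass the test (−0.91, SE 0.57, adjusted p = 0.236). It overlaps *A530084C06Rik* on the opposite strand over 3200 bases. Of the 3 genes on chromosome 13, *Foxf2* was thus lower and *Foxc1* higher, and of the 3 on chromosome 8, 1 (*Foxc2*) passed the test.

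**Figure D4:**
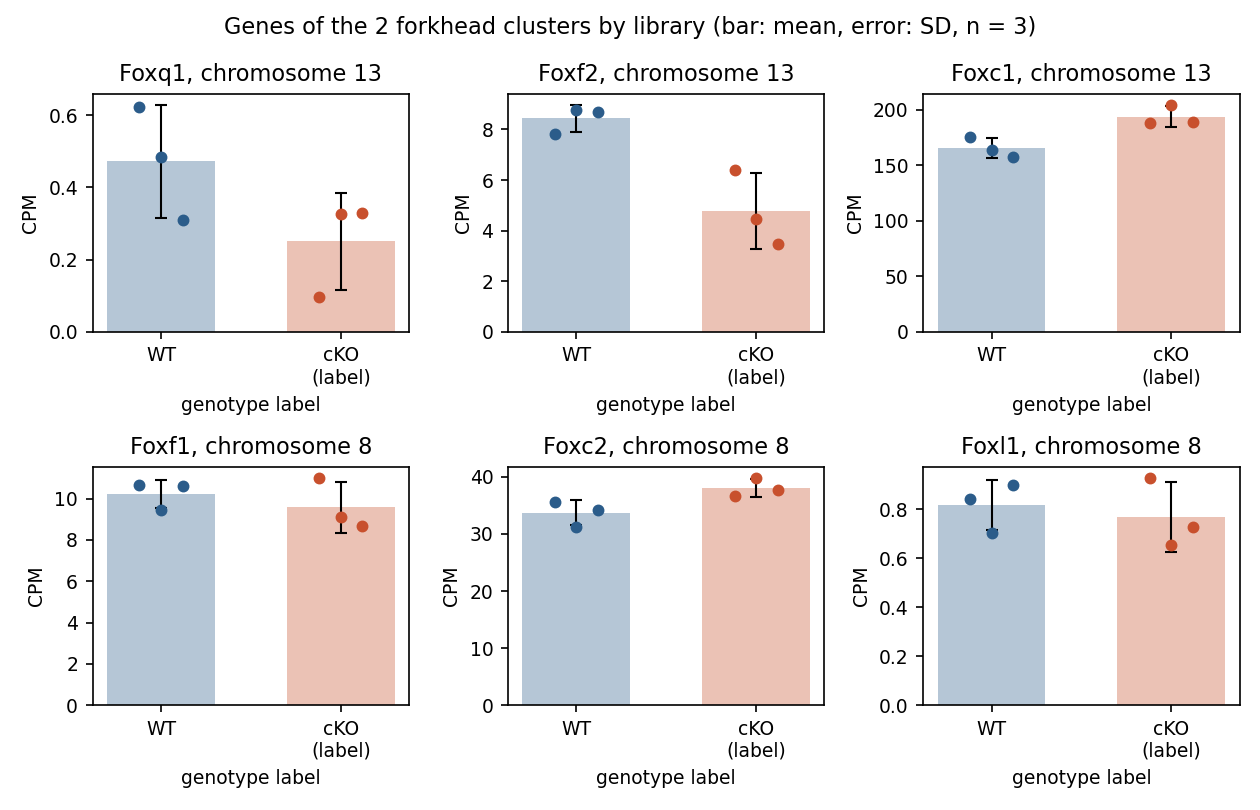
CPM of the genes of the forkhead clusters on chromosomes 13 (top) and 8 (bottom) in each library (points), with the mean (bar) and SD (error bar, n = 3); each vertical axis starts at 0 and has its own range. *Foxf2* sits lower and *Foxc1* and *Foxc2* sit higher in the cKO-labelled libraries, and the points of *Foxq1*, *Foxf1* and *Foxl1* overlap between labels.

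*Foxs1* and *Foxd1* were lower. *Foxs1* (chr2:152773818-152775128), a gene of perivascular and neural crest-derived cells, was at 9.69, 9.39 and 14.1 CPM in WT and at 4.68, 6.41 and 6.38 CPM in the cKO-labelled libraries. WT replicate 3 was the highest, and the labels did not overlap. *Foxs1* fell by 0.92 on the log2 scale (SE 0.17, adjusted p = 0.000225). Without WT replicate 3 the fall remained past the threshold.

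*Foxd1* (chr13:98490750-98495813), which marks stromal progenitors in the kidney, was at 38.9, 35.8 and 32.7 CPM in WT and at 25.2, 25.7 and 23.8 CPM in the others, and fell by 0.53 (SE 0.074, adjusted p = 1.45e-05). Its relative *Foxd2* was at 8.16 ± 0.762 and 8.38 ± 0.803 CPM (0.04, adjusted p = 0.845), and *Foxd2os*, which starts 354 bases away on the opposite strand, also did not pass the test (0.04, adjusted p = 0.890). The ratio of *Foxd1* to *Foxd2* was 2.27 ± 0.391 in WT and 1.53 ± 0.0895 in the cKO-labelled libraries.

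Most markers of smooth muscle cells and pericytes were also lower in the cKO-labelled libraries, as were 19.2% of all tested genes. Of 7 such markers 6 fell (*Acta2*, *Myh11*, *Tagln*, *Cnn1*, *Rgs5* and *Notch3*), and their summed level with *Cspg4*, which was higher, was 1306 to 1507 CPM in WT and 644.1 to 720.3 CPM in the others. Of 9 endothelial markers 7 were tested, and *Pecam1*, *Cdh5*, *Tek* and *Emcn* fell while *Kdr* and *Erg* rose, at a summed 11.98 to 12.997 and 12.7 to 14.5 CPM. Osteoblast markers summed to 16822 to 19033 CPM in WT and 12084 to 12589 CPM in the others (2 of 7 tested higher, 4 lower). Chondrocyte markers summed to 1971 to 2184 and 2949 to 3138 CPM (6 of 7 higher, 1 lower), and fibroblast or periosteal markers to 10158 to 10712 and 10489 to 11199 CPM (3 of 9 higher, 6 lower). Markers of marrow stromal cells summed to 645.9 to 720.3 and 1325 to 1360 CPM (2 of 7 higher, 2 lower), and osteoclast markers to 143.0 to 152.4 and 150.5 to 181.4 CPM (2 of 6 higher, 2 lower). The part of any of these cell types in the forkhead differences was not tested.

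The FoxN and FoxJ genes included 3 of the higher members. *Foxn2* (chr17:88748139-88797961) was at 30.5, 26.6 and 24.3 CPM in WT and at 35.3, 36.6 and 40.3 CPM in the cKO-labelled libraries (log2 fold change 0.46, SE 0.081, adjusted p = 0.000181), the highest value among the 6 higher members. *Foxn3* (chr12:99156337-99529841), a repressor with a part in cell cycle checkpoints, was at 64.4, 61.4 and 60.4 CPM and at 71.8, 75.3 and 72.5 CPM (0.24, SE 0.049, adjusted p = 0.000824). *Foxj2* (chr6:122796873-122822325), a broadly expressed activator, was at 38.4, 40.7 and 40.4 CPM and at 48.3, 51.7 and 50.1 CPM (0.33, SE 0.056, adjusted p = 0.000119). In none of these 3 did the labels overlap. *Foxj3*, an activator of muscle genes, was at 66.7 ± 0.624 CPM in WT and 62.5 ± 2.04 CPM in the others. Its libraries also did not overlap, but the difference did not pass the test (−0.09, adjusted p = 0.144), and *Frg2f1*, on the opposite strand over 2526 bases of it, was lower (−0.54, adjusted p = 0.0112). The ratio of *Foxj2* to *Foxj3* per length was 1.23 ± 0.0489 in WT and 1.65 ± 0.0985 in the cKO-labelled libraries.

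*Foxp1* was the 1 FoxP gene that passed. *Foxp1* (ENSMUSG00000030067, chr6:98902299-99499682, minus strand), a repressor in lymphoid, cardiac and mesenchymal cells, had 7392, 7719 and 6198 counts in WT and 5569, 5337 and 6577 in the others, or 159.8 ± 4.34 and 137.1 ± 6.71 CPM. The labels did not overlap, and *Foxp1* fell by 0.22 on the log2 scale (SE 0.046, adjusted p = 0.000933). *Foxp4* (ENSMUSG00000023991, chr17:48178058-48235570, minus strand), at a like level per length, had 2683, 2820 and 2229 counts in WT and 2612, 2370 and 2641 in the others, or 58.0 ± 1.46 and 59.9 ± 1.99 CPM (0.05, SE 0.050, adjusted p = 0.492). The ratio of *Foxp1* to *Foxp4* was 0.988 ± 0.00781 in WT and 0.821 ± 0.0653 in the cKO-labelled libraries, without overlap. *Foxp2*, known for speech and motor circuits, was at 18.8 ± 2.03 and 17.4 ± 0.388 CPM (−0.11, adjusted p = 0.355).

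*Foxp3*, the master factor of regulatory T cells, had 21, 4 and 3 counts in WT and 20, 6 and 32 in the others. The labels overlapped and the difference did not pass the test (1.08, SE 0.72, adjusted p = 0.261). The exception was the fit without WT replicate 1, the WT library with the most *Foxp3* counts (2.44, adjusted p = 0.0384). *Ppp1r3f* and *Ccdc22* overlap *Foxp3* on the opposite strand and held 16 to 65 counts in every library. The T cell markers *Cd3e*, *Cd3d*, *Cd3g*, *Cd8a* and *Ctla4* were at 0 in every library, *Cd4* had at most 12 counts and *Il2ra* at most 4, while *Ikzf2*, which other cells also express, was tested and lower. The 8 markers together lay between 14.5 and 17.0 CPM in WT and between 11.7 and 14.7 CPM in the others.

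The FoxK genes and *Foxm1* did not pass the test. *Foxk2* (ENSMUSG00000039275, chr11:121150816-121200722, plus strand) had 3663, 4042 and 3446 counts in WT and 3410, 3144 and 3748 in the others, or 83.9 ± 4.25 and 80.9 ± 1.73 CPM (log2 fold change −0.05, SE 0.050, adjusted p = 0.458). *Foxk1*, its partner in restraining autophagy genes, was at 72.1 ± 1.19 and 74.1 ± 1.75 CPM (0.04, adjusted p = 0.563). *Foxm1*, the mitotic activator, was at 23.9 ± 1.31 and 24.4 ± 1.29 CPM (0.04, adjusted p = 0.761). For these 3 genes the libraries of the labels overlapped, and the sum of the FoxK genes was 156.0 ± 5.02 and 155.0 ± 1.23 CPM.

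The 21 members that were not tested were at or near the floor of detection. At 0 in every library were *Foxb1*, *Foxb2*, *Foxd4*, *Foxe3*, *Foxi1*, *Foxi2*, *Foxi3*, *Foxl3*, *Foxn4*, *Foxr1* and *Foxr2*, which allows a level of up to 0.0605 to 0.0773 CPM per library (3 counts, counting error only). Of all counts between 1 and 10 in a library, 63.4% to 65.7% were even numbers, so that 1 read pair may often stand as 2 counts, and at 6 counts the limit is 0.121 to 0.155 CPM. With the counts halved, the same 13 members passed the test. *Foxl2*, a gene of the ovary, reached 15 counts, *Foxa3* 12 and *Foxo6* 10. *Foxj1* reached 5 counts, *Foxa1* 4, *Foxh1* 3, and *Foxn1*, *Foxa2*, *Foxe1* and *Foxd3* 2 each. *Foxl2* had 8, 15 and 0 counts in WT and 2, 0 and 0 in the others, and *Foxo6* had 8, 10 and 4 and then 2, 0 and 0. The pioneer factors of endoderm (FoxA), the thymic factor *Foxn1* and the ciliary factor *Foxj1* were thus at the edge of detection in both groups.

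Genes around the FoxO proteins were examined through lists written from textbook knowledge, but with earlier results of these data known. Of 42 regulators of FoxO activity, 13 were higher and 14 lower (64.3% passed, against 39.3% of all tested genes), with a median log2 fold change of 0.03. The median size of the change was 0.17, against 0.25 over all tested genes. *Pik3cg*, the catalytic PI3-kinase subunit of leukocytes, rose from 4.78 ± 0.750 to 39.2 ± 1.68 CPM (3.04, SE 0.10, adjusted p = 9.84e-14). *Pik3cd*, another leukocyte subunit, rose from 6.31 ± 0.830 to 21.2 ± 0.997 CPM (1.75, SE 0.11, adjusted p = 4.1e-10). The macrophage markers given above were also higher, and their part in these rises was not tested. *Irs1*, an adaptor of the insulin receptor, fell from 66.0 ± 1.16 to 46.6 ± 4.80 CPM (−0.50, SE 0.064, adjusted p = 5.23e-06), and *Mdm2*, a ubiquitin ligase of p53 and FoxO, fell from 260.3 ± 7.47 to 209.1 ± 7.99 CPM (−0.32, SE 0.042, adjusted p = 9.51e-06). All 4 regulators with a log2 fold change of at least 1 in size were higher (*Pik3cg*, *Pik3cd*, *Sgk3* and *Irs2*).

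Of 52 FoxO target genes 43 were tested, and 20 were higher and 14 lower, with a median log2 fold change of 0.03. The share that passed was 79.1%, against 39.3% of all tested genes. The median size of the change was 0.26, against 0.25. *Irs2*, *Insr* and *Rictor* stand in both FoxO lists. *Il7r*, the interleukin-7 receptor of lymphoid and some myeloid cells, rose from 13.7 ± 1.85 to 72.8 ± 1.49 CPM (2.41, SE 0.079, adjusted p = 6.81e-14), and *Sod2*, the mitochondrial superoxide dismutase, rose from 167.1 ± 3.48 to 299.9 ± 10.0 CPM (0.84, SE 0.041, adjusted p = 1.75e-11). *Cited2*, a transcriptional co-regulator, fell from 486.7 ± 15.3 to 324.0 ± 3.69 CPM (−0.59, SE 0.038, adjusted p = 7.12e-10), and *Bnip3*, a mitophagy receptor, fell from 591.3 ± 32.6 to 379.6 ± 5.74 CPM (−0.64, SE 0.042, adjusted p = 8.54e-10). Targets moved in both directions, as all tested genes did (20.1% higher and 19.2% lower). A link between the targets and the FoxO genes was not tested.

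The forkhead core TGTTTAC, read on either strand (GTAAACA on the other), was searched in the 300 bases around each start site in RefSeq promoters of GRCm38.p6. It was present for 7 of the 43 FoxO target genes with a promoter in that table (16.3%) and for 4.05% of all 27025 genes there. Among tested genes the share was 3.1%, with 3.19% of those called higher and 2.92% of those called lower. The targets were listed because they are known as such, so their share is no test of these data. The following windows show it, in capitals with 20 bases on each side and read on the strand of the gene, for the tested targets that hold it wholly before the start site.
Bbc3 (chr7:16310074-16310120, plus strand): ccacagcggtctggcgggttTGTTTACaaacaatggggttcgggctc
Bcl2l11 (chr2:128125791-128125837, plus strand): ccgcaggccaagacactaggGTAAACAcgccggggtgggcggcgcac
Btg1 (chr10:96616777-96616823, plus strand): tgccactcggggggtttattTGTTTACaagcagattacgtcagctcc
Hbp1 (chr12:31950368-31950414, minus strand): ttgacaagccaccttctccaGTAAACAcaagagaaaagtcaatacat
Txnip (chr3:96557816-96557862, plus strand): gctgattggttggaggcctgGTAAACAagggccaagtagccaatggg
*Bcl2l11*, which encodes the apoptosis inducer BIM, was higher (0.47, adjusted p = 5.98e-05), as were the growth inhibitors *Btg1* (0.23, adjusted p = 0.000242) and *Hbp1* (0.17, adjusted p = 0.00535). *Bbc3*, which encodes PUMA, and *Txnip*, a thioredoxin inhibitor, did not pass the test (−0.07, adjusted p = 0.714, and 0.12, adjusted p = 0.0944). *Sesn1* (0.79, adjusted p = 9.1e-07) held the core after its start site, and *Trim63* held it but was not tested. Of the 13 tested forkhead genes with a promoter in the table, 0 held it. A match describes these letters only, and no match says only that they are not in the window.

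Of 30 targets of Foxm1, genes of mitosis, 1 was higher and 5 lower, with a median log2 fold change of −0.07. The log2 fold change was below 0 for 21 of them and above 0 for 9 (8414 and 8732 over all tested genes). The share that passed was 20%, against 39.3% of all tested genes. *Cdc25b*, a phosphatase that triggers mitosis, rose from 13.2 ± 0.145 to 18.4 ± 1.14 CPM (0.49, SE 0.087, adjusted p = 0.000205). *Cks1b*, a partner of cyclin-dependent kinases, fell from 25.9 ± 2.63 to 20.2 ± 1.54 CPM (−0.36, SE 0.088, adjusted p = 0.00309), and the mitotic cyclin *Ccnb2* fell from 16.8 ± 0.306 to 13.04 ± 1.48 CPM (−0.37, SE 0.097, adjusted p = 0.00544). The count of lower genes was 3 without WT replicate 2 and 2 without the first or the third cKO-labelled library, and 2 were higher without WT replicate 3.

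Of 20 genes of the motile cilia program that Foxj1 directs, 7 were tested and 0 passed with edgeR. At an unadjusted p under 0.05 there was 1 (*Rsph1*, −0.89, adjusted p = 0.0729), and limma-voom called 1 lower. The 13 others reached at most 14 counts.

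Among 37 cofactors of forkhead proteins, 9 were higher and 9 lower, with a median log2 fold change of −0.005. The share that passed was 48.6%, against 39.3% of all tested genes. The median size of the change was 0.12, against 0.25. *Runx1*, a blood and skeletal factor, rose from 180.0 ± 10.7 to 301.2 ± 6.33 CPM (0.74, SE 0.046, adjusted p = 3.77e-10). *Nfatc2*, a calcium-dependent partner of forkhead factors in lymphocytes, rose from 1.63 ± 0.421 to 11.3 ± 1.41 CPM (2.80, SE 0.18, adjusted p = 7.24e-10). The corepressor *Tle1* fell from 51.3 ± 1.92 to 28.7 ± 0.686 CPM (−0.84, SE 0.059, adjusted p = 2.22e-09), while *Tle4*, of the same Groucho family, rose from 5.89 ± 1.02 to 13.3 ± 1.04 CPM (1.18, adjusted p = 1.06e-06; named after its values were seen).

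**Figure D5:**
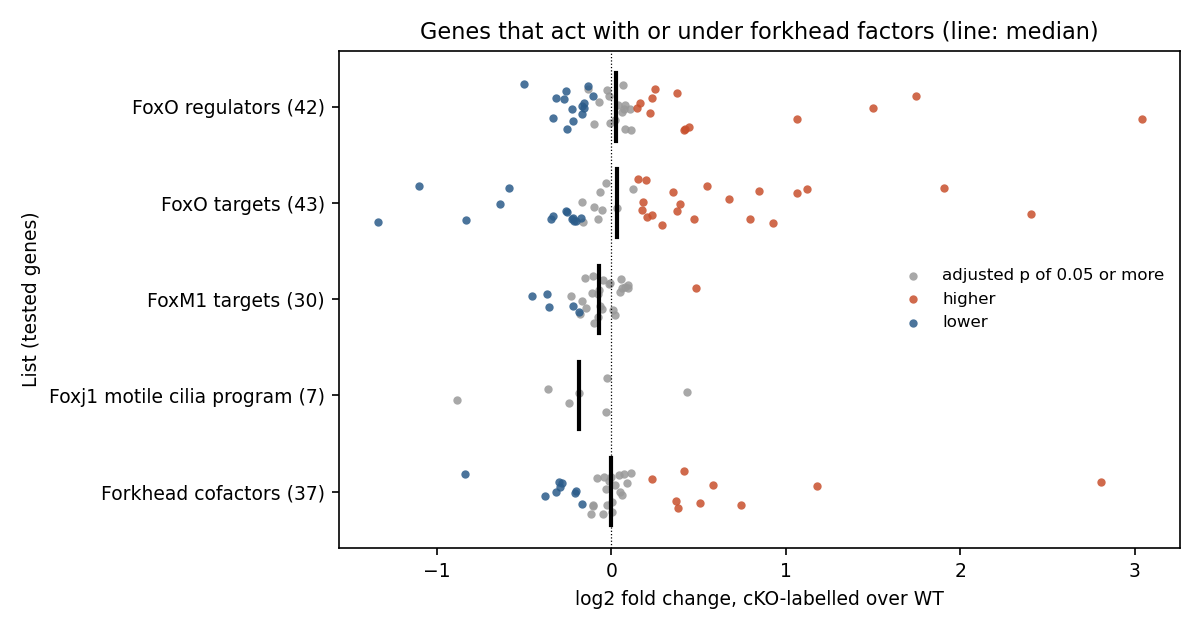
Log2 fold change, cKO-labelled libraries over WT, of the tested genes of each list (1 point per gene, number tested in brackets), coloured by the edgeR call, with a line at the median. The FoxO lists spread to both sides with medians of 0.03. The Foxm1 targets have a median of −0.07, with 21 genes below 0 and 9 above, of which 1 was called higher and 5 lower.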

How the data were processed

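RNA sequencing of stimulated osteocytes was analysed in 3 WT libraries and 3 cKO-labelled libraries (*Gsdmd* conditional knockout). The authors aligned 150 bp read pairs to GRCm39 with HISAT2 2.0.5 and deposited raw counts per gene, with gene lengths and coordinates. The labels name featureCounts 1.55.0-p3 for the counts, whereas the methods name another version of it and also RSEM. The strand setting is not given in the sources used here. From these counts edgeR 4.0.16 (R 4.3.3) was run with filterByExpr, TMM scaling, glmQLFit and glmQLFTest on genotype alone. P-values were adjusted by Benjamini-Hochberg over 17146 genes and called at 0.05. CPM used TMM-scaled library sizes. Alternatives were RLE normalization, library size only, no filter, DESeq2 1.42.0, limma-voom (limma 3.58.1), a replicate block, halved counts, a fold limit and leaving out each library. The script was tested on simulated data. Libraries of the same label differed beyond the noise of single counts (chi-square per gene 4.87 to 14.2). Read pairs that stand as 2 counts would raise this value, and technical differences can too. It therefore does not show whether the 6 libraries, each counted as 1 replicate, were independent. All 45 members matched GENCODE M39 by identifier and chromosome, 39 shared a start or an end with it, and 23 shared both.

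The members and the gene lists were chosen with earlier results of these data known. Members that passed the filter were named by subfamily, with full values for those past a log2 fold change of 1 and for the 6 highest per length. In each pathway list, up to 2 genes per direction with the smallest p were named. Lists not described in the report were markers of epithelial cells, where *Krt8*, *Krt5* and *Krt14* were at 0 and *Cdh1* was the 1 tested gene and higher. Values of 1 member and 1 cofactor, and some sequences, are not reported here.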

Additional observations from a re-analysis of the deposited data

How the results depend on the processing

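The counts of higher and lower genes stayed within 1.5 times the reported ones under the normalizations, filter, tools, block, halved counts and left-out libraries, with these exceptions. Library size only gave 3 lower Foxm1 targets, and limma-voom gave 1 lower ciliary gene. Over the fits without 1 library, Foxm1 targets ranged from 1 to 2 higher and from 2 to 6 lower, and ciliary genes from 0 to 1 in each direction. With a log2 fold change of at least 1 in size required, 1124 of all tested genes were higher and 796 lower, 0 and 1 forkhead members, 4 and 0 FoxO regulators, 4 and 2 FoxO targets, 0 and 0 Foxm1 targets, and 2 and 0 cofactors. The replicate numbers did not pair the libraries (correlation of same-numbered libraries −0.0136 to 0.00116; 1 of 6 libraries correlated best with its own number), and with the replicate block 5 members were higher and 7 lower, since *Foxc2* did not pass. Apart from *Foxc2* and *Foxp3*, as given in the report, no member crossed the threshold in 13 other fits. Directions near 0 turned for 3 members that had not passed: over the fits without 1 library, *Foxm1* ranged from −0.00995 to 0.076, *Foxd2* from −0.0309 to 0.11 and *Foxl1* from −0.237 to 0.0166. The cause was not tested. Depth limits statements on members under about 30 counts, among them *Foxq1* and *Foxp3*.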
